A study of Rattus norvegicus with 8 samples.

Results

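The microRNAs of the Dlk1-Dio3 imprinted cluster were described across 4 microRNA arrays of primary rat Sertoli cells. They were chosen by name: every mature rat row whose microRNA number is on a list of 40 numbers known from the cluster, with any letter, arm or star suffix. Of 680 mature rat rows, 77 were members, and they came from 41 precursors. Of the 40 numbers, 39 had a row, and miR-889 had none. By name 37 rows were plain (the older name of the guide strand), 32 were star rows (the older name of the other strand of the hairpin) and 8 carried an arm suffix, 5p or 3p. In the order of the cluster, 19 rows lay on the side of Meg3 and Rtl1, from miR-770 to miR-370, and 58 on the side of the series from miR-379 to miR-410. Precursors without an annotated position on the gene-level array were placed by a shifted position from another genome build, so the order is approximate.

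Sertoli cells are the supporting cells of the seminiferous tubule, to which the developing germ cells are attached. They were taken from rat testes, kept in primary culture in serum, and then treated for 24 hours in 4 groups: NP at 0.1 µM, MBP at 0.1 mM, the mixture of both at these doses (NP+MBP), or control. The labels give neither the strain nor the age of the rats, nor how many animals were pooled, and do not spell out what NP and MBP stand for. Each group had 1 microRNA array and 1 gene-level array, so no difference between 2 groups has a replicate check. Each compound can be read in 2 pairs of arrays that share none, once where the other compound is absent and once where it is present. For MBP these pairs are MBP minus control, then NP+MBP minus NP. For NP they are NP minus control, then NP+MBP minus MBP. A mean over the 2 pairs is given ± SD (n = 2 pairs). Where the compounds truly interact, this adds to the SD. Both compounds use the same 4 arrays, so a row has the same SD for MBP and for NP, and the 2 are not separate evidence. For some rows both arrays with a compound lie above, or below, both without it. The share of all rows that separate in this way was not counted.

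The Dlk1-Dio3 domain is a stretch of imprinted genes, read from only 1 of the parental chromosomes. Dlk1, Rtl1 and Dio3 code for proteins and are expressed from the paternal copy, while the long noncoding RNA Meg3, snoRNAs and the microRNAs come from the maternal copy. miR-431, miR-433, miR-127, miR-434 and miR-136 lie antisense to Rtl1 and pair with its RNA, and the series from miR-379 to miR-410 is processed from 1 long transcript. In rat neurons that series is switched on by activity, and miR-134 there limits the growth of dendritic spines.

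The sequences of the members that the results turn on are given here because the seed, bases 2 to 8 from the 5′ end, chooses the targets of a microRNA. RefSeq (GRCr8) held a sequence for 67 of the 77 members: 11 under the same name, 54 under the arm that the older name stood for, and 2 under a name with a letter added. Seeds are in capitals. The first set holds the members with the highest signals that had a sequence.
miR-127: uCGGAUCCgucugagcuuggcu
miR-494: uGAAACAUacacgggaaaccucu
miR-379: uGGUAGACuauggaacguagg
miR-541: aAGGGAUUcugauguuggucacacu
miR-382: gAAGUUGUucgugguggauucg
miR-134: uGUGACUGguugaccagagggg
miR-487b: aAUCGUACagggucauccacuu

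The second set holds members that are described below for their differences between arrays, most of them star rows.
miR-154-star: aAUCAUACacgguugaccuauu
miR-433-star: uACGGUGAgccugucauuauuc
miR-379-star: cUAUGUAAcaugguccacuaac
miR-667-star: cGGUGCUGguggagcagugagcac
miR-412-star: uGGUCGACcagcuggaaagu
miR-376a: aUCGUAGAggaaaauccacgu
miR-539: gGAGAAAUuauccuuggugugu
miR-370: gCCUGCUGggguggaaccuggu

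The 67 sequences carried 63 different seeds. Only 3 seeds were shared by several members, and none of the rows that share them passed the signal filter. Among members above the filter, 5 pairs had seeds that differ by 1 base, with positions counted from 1 at the 5′ end of the microRNA. miR-487b and miR-154-star differ by G5A, miR-379 and miR-411 by G2A, miR-379 and miR-412-star by A5C, miR-376b-3p and miR-376a by A4G, and miR-412-star and miR-369-5p by G3A. How far such near copies share signal on the array was not tested.

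The filter kept rows whose mean over the 4 arrays was at or above 1.35 on the log2 scale, the median of all mature rat rows. It kept 54 members and left out 23. It kept 32 of 37 plain rows, 17 of 32 star rows and 5 of 8 arm-named rows, against 340 of all 680 rows. By side, 16 of 19 rows near Meg3 and Rtl1 passed, and 38 of 58 rows of the miR-379 to miR-410 side. Signals of different rows come from different probes and are not amounts, so only the same row is compared between arrays. In RNA from whole cultures, fewer cells of a type and less RNA per cell cannot be told apart.

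The members with the highest signals were nearly level across the arrays. miR-127, which is cut from the transcript antisense to Rtl1, was at 10.75 with NP, 10.35 with MBP, 10.62 with NP+MBP and 10.58 in control. miR-494 was at 9.85 with NP, 9.71 with MBP, 9.71 with NP+MBP and 9.84 in control. miR-379, the first microRNA of the long series, was at 9.76, 9.58 and 9.81 with NP, MBP and NP+MBP, and at 9.75 in control. For these 3 the whole range over the arrays stayed below 0.5 on the log2 scale.

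miR-541 was at 9.71 with NP, 9.37 with MBP, 9.65 with NP+MBP and 9.58 in control. miR-382 was at 8.89 with NP, 8.81 with MBP, 8.84 with NP+MBP and 8.92 in control. miR-134 was at 8.78 with NP, 8.34 with MBP, 8.63 with NP+MBP and 8.55 in control. The MBP array held the lowest value of miR-127, miR-379, miR-541, miR-382 and miR-134 alike. miR-487b was lowest there too, at 8.70 with NP, 8.46 with MBP, 8.55 with NP+MBP and 8.56 in control.

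3 further members of the top 10 stand near Rtl1. miR-434 was at 7.72 with NP, 8.19 with MBP, 8.24 with NP+MBP and 7.96 in control. miR-431 was at 7.60 with NP, 7.50 with MBP, 7.86 with NP+MBP and 7.52 in control. miR-337-star, the only star row of the 10, was at 7.65 with NP, 7.01 with MBP, 7.57 with NP+MBP and 7.38 in control. The arrays split differently by row here: both arrays with MBP were the higher ones for miR-434, and the MBP array alone was the low one for miR-337-star.

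**Figure D1:**
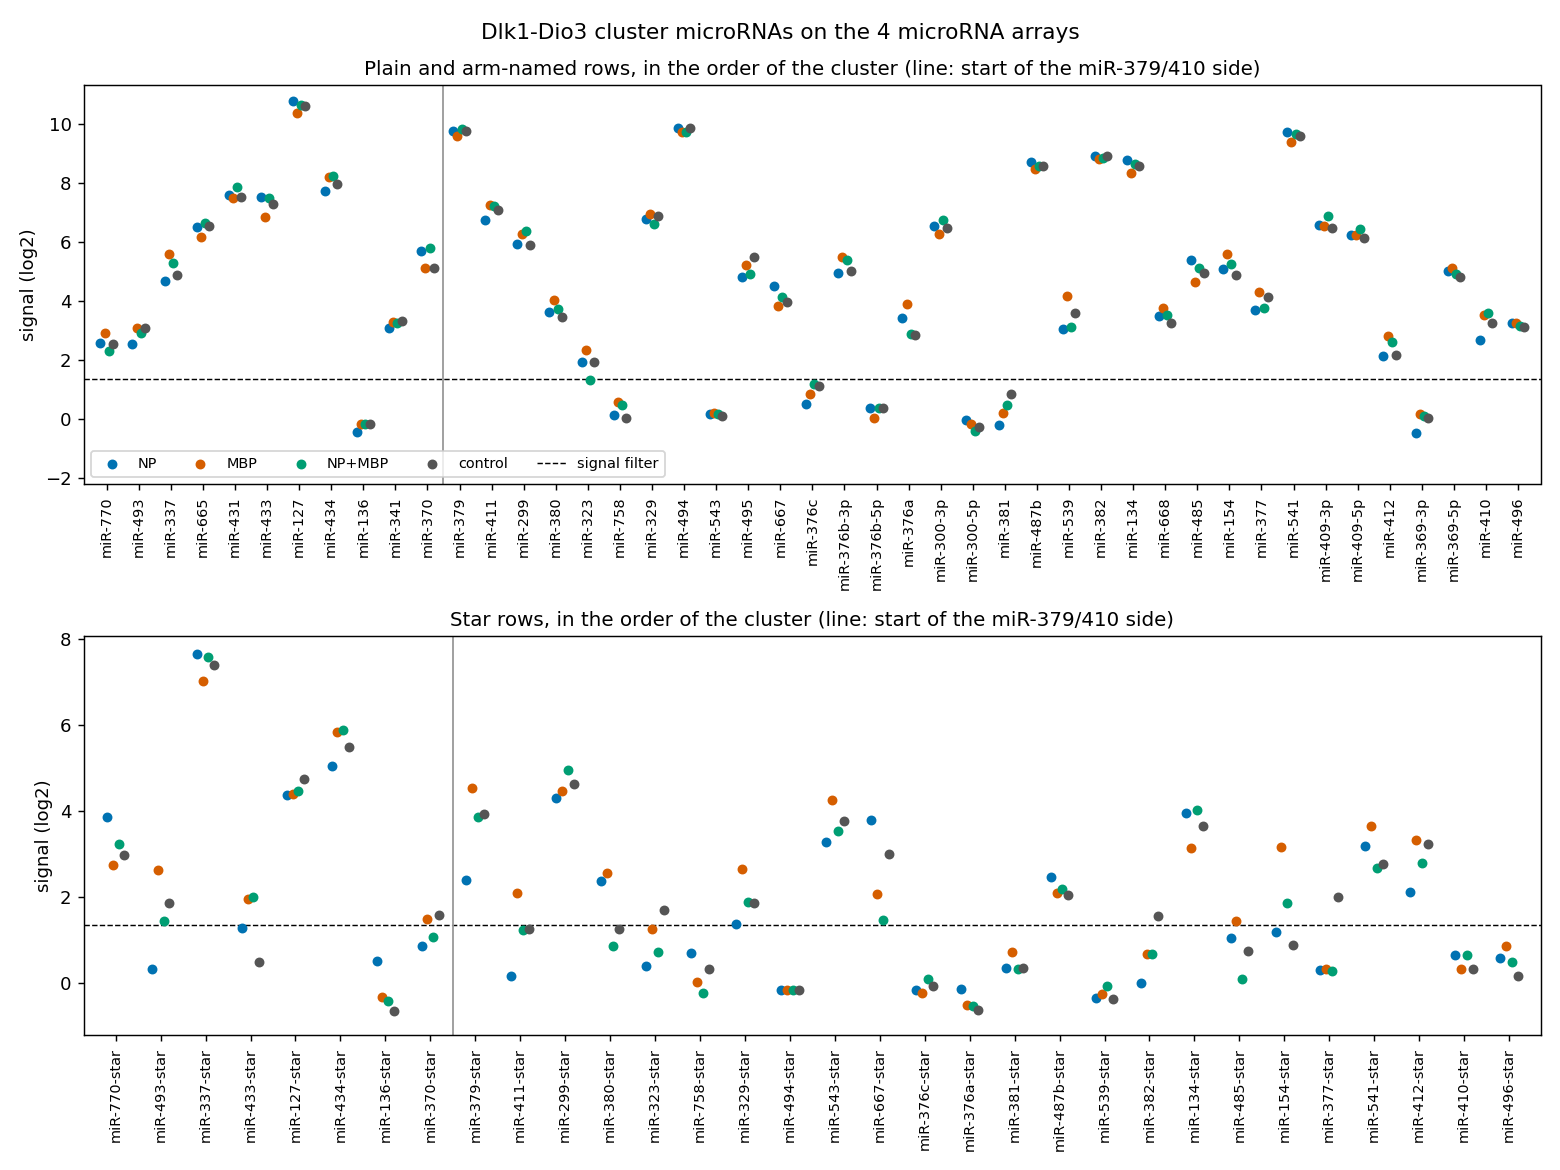
Log2 signal (vertical axis) of all 77 members on the NP, MBP, NP+MBP and control arrays (coloured points), in cluster order, with plain and arm-named rows above and star rows below; the dashed line is the signal filter at 1.35. miR-127, miR-494, miR-379 and miR-541 lie between 9.37 and 10.75 on every array, while the points of star rows such as miR-154-star, miR-379-star and miR-667-star lie far apart. miR-496 is drawn last, after miR-410, and that place is approximate.

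Over the 54 members above the filter, the median range across the 4 arrays was 0.63, against 0.59 over all 340 rows. The range reached 2-fold for 12 members, or 22.2%, against 24.7% of all rows. Star rows carried most of this: 9 of 17 spanned 2-fold or more, against 3 of 37 plain and arm-named rows. Star rows also had lower signals: 2 lay above the 75th percentile of signal of all mature rows, against 18 plain and arm-named rows. The part of signal level in the wider range of star rows was not tested. The highest value lay on the MBP array for 24 members (44.4%, against 36.2% of all rows), on the NP+MBP array for 14, on the NP array for 12 and on the control array for 4. The lowest lay on the NP array for 19 (35.2%, against 33.8% of all rows) and on the MBP array for 15 (27.8%, against 32.4%). It lay on the control array for 13 (24.1%, against 18.2%) and on the NP+MBP array for 7 (13.0%, against 15.6%). miR-493, which was equal on the MBP and control arrays, is counted under MBP.

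The scaling of the arrays sets how such small steps are read. Centring each array on its median moved the median NP minus control over all 340 rows to 0.22, against 0.02 as deposited, and turned the sign of small differences. The MBP array stayed the lowest for miR-127, miR-134, miR-379 and miR-541 under median centring, quantile and loess scaling. For miR-382 and miR-487b it stayed so under median centring only, and the NP+MBP array was the lowest under quantile and loess scaling.

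With MBP alone, 4 members were at least 2-fold higher than in control and 0 were at least 2-fold lower. Of all 340 rows, 6.18% were at least 2-fold higher and 2.06% at least 2-fold lower. The 4 members were miR-154-star, miR-433-star, miR-380-star and miR-376a. The members' median difference was 0.09, against 0.04 over all rows, and it turned to -0.10 for the 20 members above the 75th percentile of signal. The 4 members are 4 of 54, close to the share of all rows. miR-154-star, miR-433-star and miR-380-star were each at or above the filter on 2 of 4 arrays, the MBP array among them. miR-376a was under 2-fold in all 3 scalings, at 0.98 with median centring, 0.78 with quantile and 0.76 with loess scaling. miR-667-star was 2-fold lower with quantile and loess scaling, so the counts there were 3 higher and 1 lower.

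miR-154-star had the widest difference. It was at 3.16 with MBP and 0.88 in control, a difference of 2.28, and at 1.87 with NP+MBP and 1.20 with NP, a difference of 0.68. The mean of both pairs was 1.48 ± 1.13 (SD, n = 2 pairs). It was higher in both pairs, but its values with NP and in control lie below the filter, so the size is uncertain. The row passed the filter through the arrays with MBP alone, so its being higher with MBP is in part set by the filter.

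miR-433-star was at 1.96 with MBP and 0.50 in control, and at 1.998 with NP+MBP and 1.28 with NP. Its mean over the pairs was 1.09 ± 0.52 (SD, n = 2 pairs). Both arrays with MBP were above both arrays without it, and the arrays without it lay below the filter. The row passed the filter through the arrays with MBP alone, so that order is in part set by the filter. miR-376a was at 3.88 with MBP and 2.84 in control, but at 2.89 with NP+MBP and 3.42 with NP. Its 2 pairs thus ran in opposite directions, 1.03 and -0.53.

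In the other MBP pair, NP+MBP minus NP, 2 members were at least 2-fold higher, miR-379-star and miR-493-star, and 2 at least 2-fold lower, miR-667-star and miR-380-star. Of all rows 6.18% were at least 2-fold higher and 5.59% at least 2-fold lower in that pair. Loess scaling gave 1 member higher and 2 lower, with miR-493-star just under 2-fold. miR-379-star was at 3.87 with NP+MBP and 2.40 with NP, and at 4.54 with MBP and 3.94 in control, with a mean of 1.04 ± 0.62 (SD, n = 2 pairs). miR-493-star was at 1.44 with NP+MBP and 0.32 with NP, and at 2.63 with MBP and 1.87 in control, with a mean of 0.94 ± 0.26 (SD, n = 2 pairs). For both rows the NP array held the lowest value and the MBP array the highest.

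miR-667-star ran the other way. It was at 1.46 with NP+MBP and 3.79 with NP, a difference of -2.33, and at 2.07 with MBP and 2.9997 in control, a difference of -0.93. Both arrays with MBP were below both without it, and the mean was -1.63 ± 0.98 (SD, n = 2 pairs). The row was named for this low mean, and the share of all rows that separate so was not counted. The other members lowest over the MBP pairs differed by less. miR-770-star differed by -0.44 ± 0.29, miR-485, which acts on synaptic proteins in rat neurons, by -0.28 ± 0.02, and miR-667 by -0.25 ± 0.18 (SD, n = 2 pairs each).

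Neither higher nor lower did any member reach 2-fold in both of the MBP pairs, where 5 of all 340 rows were 2-fold higher and 5 were 2-fold lower. Of 54 members, 23 were higher in both pairs (42.6%, against 41.2% of all 340 rows) and 12 were lower in both (22.2%, against 24.4%). Some members had nearly the same difference in both pairs. miR-376b-3p was at 5.47 with MBP and 5.01 in control, and at 5.39 with NP+MBP and 4.94 with NP, a mean of 0.45 ± 0.01 (SD, n = 2 pairs). miR-337 was at 5.60 with MBP and 4.89 in control, and at 5.30 with NP+MBP and 4.68 with NP, a mean of 0.66 ± 0.06 (SD, n = 2 pairs). These 2 rows were singled out after their values were seen, and in each the arrays with MBP and those without it do not overlap. How many of all 340 rows separate in this way was not counted, so it does not mark these rows out.

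**Figure D2:**
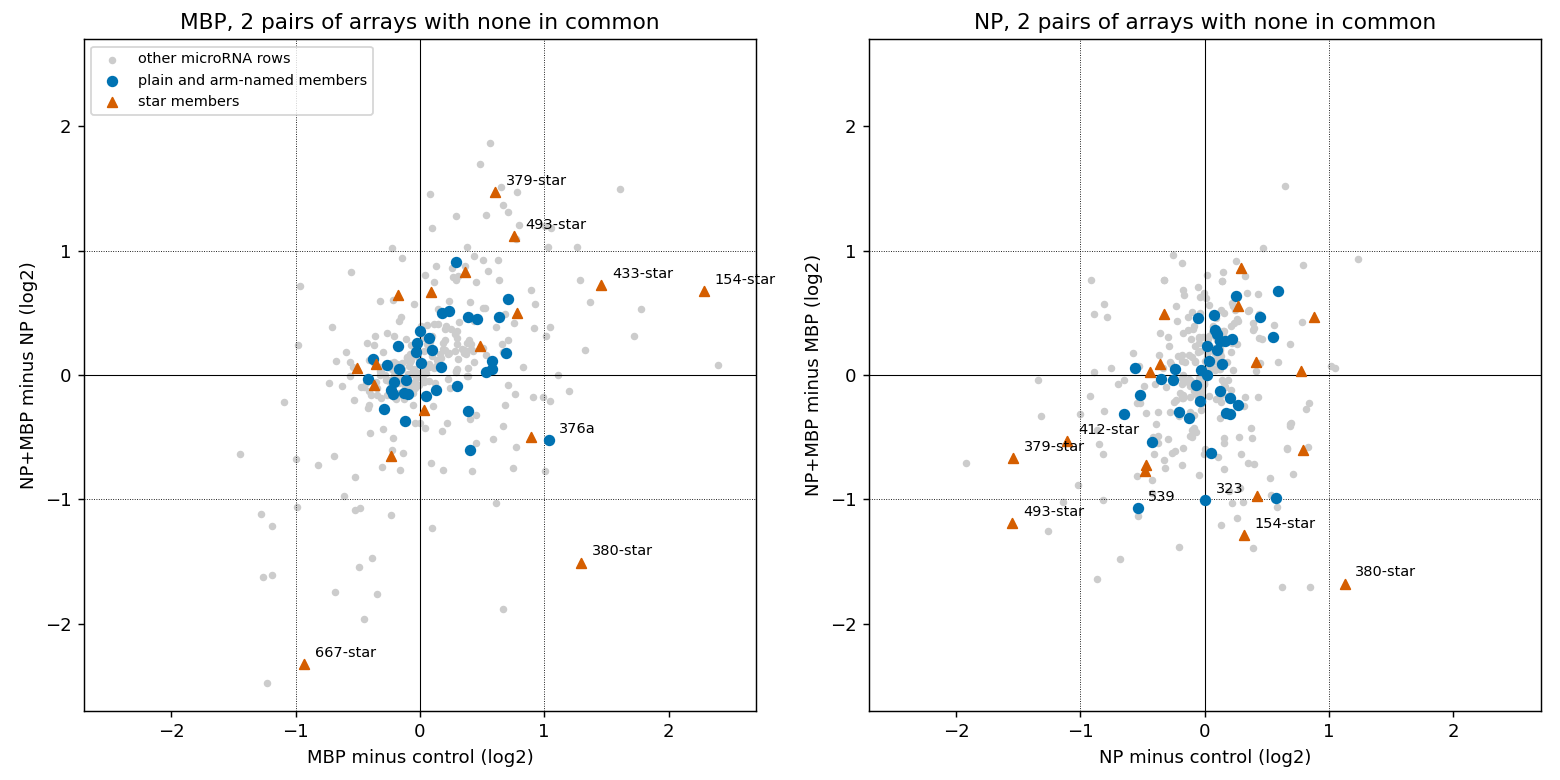
Each point is 1 row above the filter, with the log2 difference in 1 pair of arrays on the horizontal axis and in the other pair of the same compound on the vertical axis, for MBP (left) and NP (right); circles are plain and arm-named members, triangles star members, grey points other microRNA rows, and dotted lines mark 2-fold. Most members lie near 0, star rows lie farthest out, and miR-380-star sits in opposite corners of its pairs, at 1.29 and -1.51 for MBP.

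With NP alone, 1 member was at least 2-fold higher than in control, miR-380-star, and 3 were at least 2-fold lower, miR-493-star, miR-379-star and miR-412-star. Of all rows 1.18% were at least 2-fold higher and 2.94% at least 2-fold lower. Median centring gave 2 members on each side, with miR-412-star at -0.90. The comparisons of NP, MBP and NP+MBP with control share the control array, so they are not separate evidence. In the pair NP+MBP minus MBP, 0 members were at least 2-fold higher and 5 at least 2-fold lower: miR-380-star, miR-154-star, miR-493-star, miR-539 and miR-323. The shares of all rows there were 0.588% and 5.88%. Median centring or quantile scaling gave 1 member higher, miR-134-star, and 2 lower. miR-493-star, miR-539 and miR-323 were under 2-fold in that pair in all 3 scalings. The members' median was 0.06 in NP minus control, against 0.02 over all rows, and -0.02 in NP+MBP minus MBP, against 0.03 over all rows.

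As deposited, miR-493-star was the member that was 2-fold lower with NP in both pairs, by -1.55 against control and by -1.19 with MBP present, a mean of -1.37 ± 0.26 (SD, n = 2 pairs). With MBP present it was at -0.97 with median centring, -0.99 with loess and -0.79 with quantile scaling, so no scaling kept 2-fold in both pairs. Its value with NP, 0.32, lies below the filter, and the size is uncertain. Over all 340 rows, 3 were 2-fold lower in both NP pairs as deposited. miR-379-star was lower by -1.54 against control and by -0.67 with MBP present, a mean of -1.10 ± 0.62 (SD, n = 2 pairs). miR-412-star was at 2.13 with NP and 3.24 in control, and at 2.80 with NP+MBP and 3.33 with MBP, a mean of -0.82 ± 0.41 (SD, n = 2 pairs). In all 3 rows both arrays with NP were below both arrays without it as deposited. These rows were named for their low means over the NP pairs, which favours such an order. How many of all 340 rows separate in this way was not counted. With median centring miR-379-star was 0.10 higher with NP+MBP than in control.

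miR-539 was at 3.06 with NP and 3.60 in control, and at 3.11 with NP+MBP and 4.18 with MBP, a mean of -0.81 ± 0.37 (SD, n = 2 pairs). It was the plain row lowest over the NP pairs. On the higher side miR-370 was at 5.69 with NP and 5.10 in control, and at 5.79 with NP+MBP and 5.12 with MBP, a mean of 0.63 ± 0.06 (SD, n = 2 pairs). Both arrays with NP were thus above both without it, by nearly the same step. The row was named for its high mean over these pairs, and how many of all rows separate so was not counted. miR-770-star averaged 0.67 ± 0.29 over the NP pairs, miR-134-star 0.58 ± 0.40 and miR-485 0.46 ± 0.02 (SD, n = 2 pairs each).

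miR-380-star was high on both arrays with a single compound. It was at 2.38 with NP, 2.55 with MBP, 0.88 with NP+MBP and 1.26 in control. Its values with NP+MBP and in control lie below the filter. The row passed the filter through the arrays with a single compound alone, so this pattern is in part set by the filter. The MBP difference was 1.29 without NP and -1.51 with it, and the NP difference was 1.12 without MBP and -1.68 with it. Both turns are the same contrast of these arrays.

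With both compounds, 1 member was at least 2-fold higher than in control, miR-433-star by 1.49, and 1 at least 2-fold lower, miR-667-star by -1.54. Of all rows 2.65% were at least 2-fold higher and 3.82% at least 2-fold lower. With median centring or quantile scaling 2 members were higher and 1 lower. The median over members was 0.10, against 0.08 over all rows, and 35 of 54 members were above 0 (64.8%, against 66.2% of all rows). miR-154-star, at 0.99 above control, lay just short of 2-fold. Its value passed 2-fold with median centring and quantile scaling.

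The additive model, with a term for each compound fitted by limma over all 340 rows, called 0 members for NP and 0 for MBP at a Benjamini-Hochberg adjusted p under 0.05, and 0.0% of all rows for either compound. At an unadjusted p under 0.05 it held 10 of 54 members for NP, with 32 of all 340 rows, and 7 of 54 for MBP, with 47 of all rows. The lowest adjusted p of a member in the limma fit was 0.466 for NP, for miR-493-star among others, and 0.331 for MBP, for miR-493-star and miR-337. With 1 residual degree of freedom, this does not show that the members did not differ.

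Guide and star rows were then set apart. Over 37 plain and arm-named rows above the filter, the median difference was 0.07 in MBP minus control, 0.06 in NP+MBP minus NP, 0.05 in NP minus control and, with MBP present on both arrays, -0.0017. Over 17 star rows these medians were 0.36, 0.24, 0.27 and -0.53 in the same order. The SD over rows of MBP minus control was 0.82 for star rows and 0.35 for plain and arm-named rows. The median control signal was 2.9997 over star rows and 5.10 over plain and arm-named rows, and the part of signal level in this gap was not tested.

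Both strands passed the filter for 17 precursors. Their differences had the same sign in 9 of 17 precursors for MBP minus control, 11 for NP+MBP minus NP, 8 for NP+MBP minus control, 13 for NP minus control and 12 for NP+MBP minus MBP. miR-409, of which both arms had arm-named rows, moved little on either arm. miR-409-3p was at 6.58 with NP, 6.55 with MBP, 6.88 with NP+MBP and 6.48 in control, and miR-409-5p at 6.23, 6.23 and 6.44 with NP, MBP and NP+MBP and at 6.13 in control. The NP+MBP array was highest and the control array lowest for both arms.

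miR-434-star was at 5.04 with NP, 5.84 with MBP, 5.87 with NP+MBP and 5.48 in control, the same order of arrays as its plain row. miR-337, the 3p strand, had both arrays with MBP above the other arrays, whereas miR-337-star had its lowest value on the MBP array. The strands of miR-337 differed from each other by -1.07 in MBP minus control (star minus plain). miR-127-star was at 4.38 with NP, 4.39 with MBP, 4.47 with NP+MBP and 4.74 in control, so its control array was the highest while that of miR-127 was not.

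For miR-379 the strands also parted: the plain row moved by 0.02 in NP minus control and the star row by -1.54. miR-541-star was at 3.18 with NP, 3.66 with MBP, 2.68 with NP+MBP and 2.76 in control, with the MBP array highest where miR-541 had it lowest. miR-134-star, at 3.96 with NP, 3.15 with MBP, 4.02 with NP+MBP and 3.66 in control, kept the MBP array lowest, as did miR-134. miR-487b-star was at 2.47 with NP, 2.09 with MBP, 2.19 with NP+MBP and 2.05 in control, with the NP array highest as for miR-487b.

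**Figure D3:**
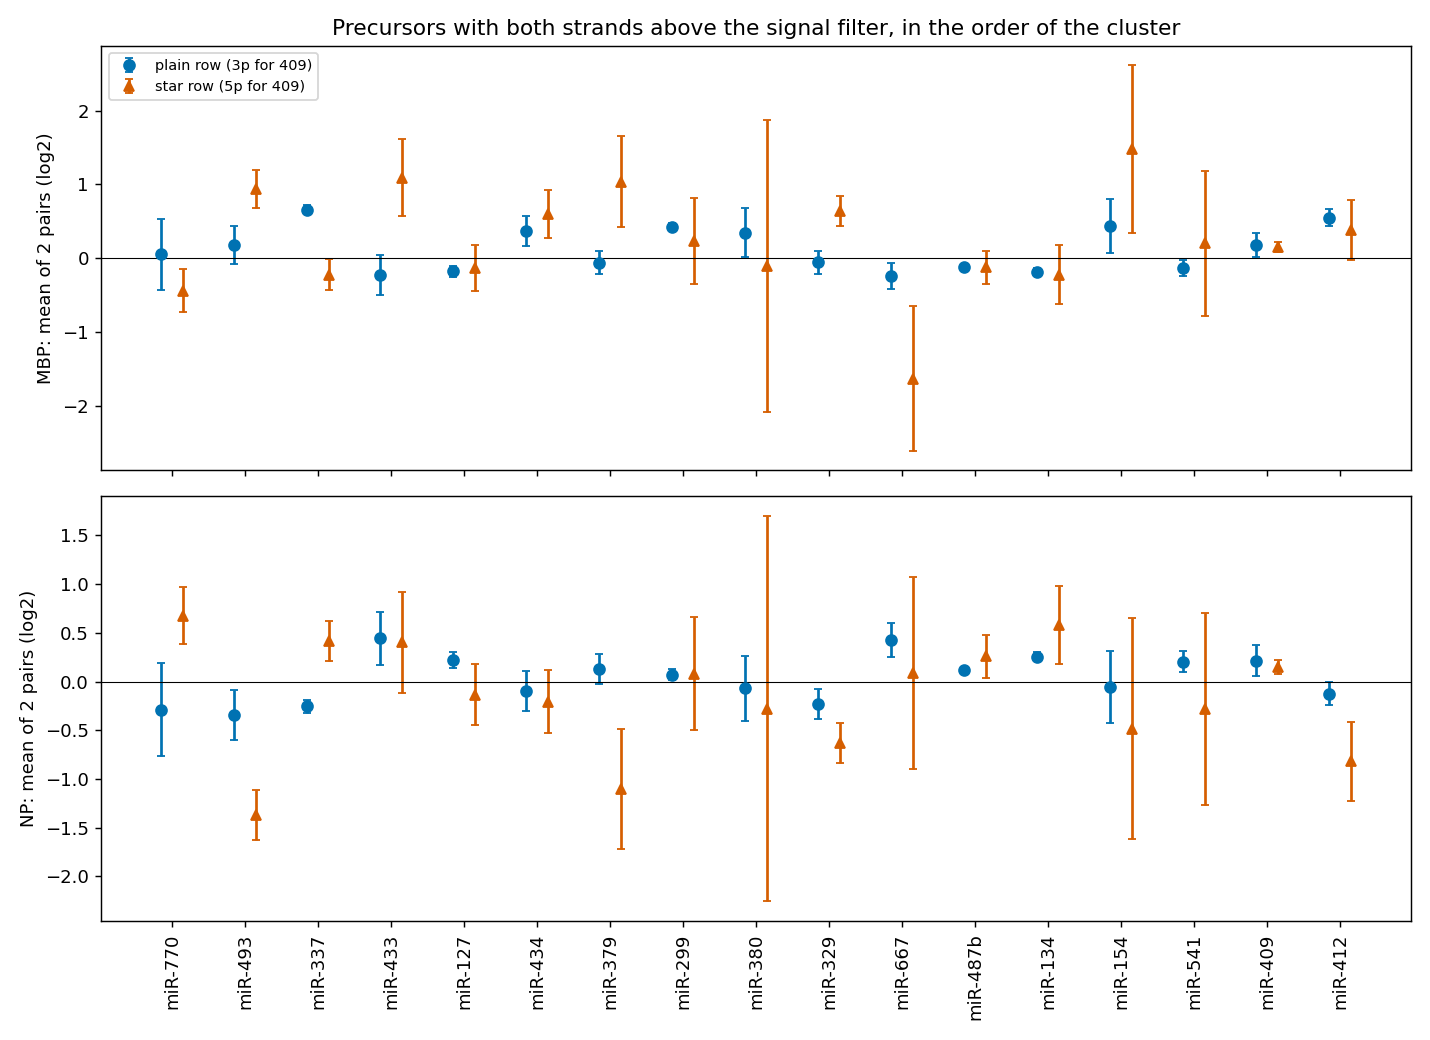
Mean log2 difference over the 2 pairs of arrays (points) ± SD (bars, n = 2 pairs) for MBP (above) and NP (below), for the 17 precursors with both strands above the filter in cluster order; circles are plain rows and triangles star rows, with 3p and 5p in their place for miR-409. The longest bar is 1.98, for miR-380-star, and the strands of miR-379, miR-433 and miR-337 lie on opposite sides of 0 for MBP. The bar of a row has the same length for MBP and for NP.

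The 2 sides of the cluster were compared as medians. For MBP minus control the median was 0.15 over 38 rows of the miR-379 to miR-410 side and -0.01 over 16 rows of the Meg3 and Rtl1 side. For NP+MBP minus NP the order was the other one, 0.06 and 0.16. For NP minus control the medians were 0.09 and -0.0027, and for NP+MBP minus control 0.07 and 0.21. For NP+MBP minus MBP the medians were -0.15 and 0.07. The sides therefore kept no common order across the comparisons.

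Signal level moved with the differences that use the MBP array. In MBP minus control the 34 members between the filter and the 75th percentile of signal had a median of 0.40, and the 20 members above that percentile had -0.10. Over all rows the same bands had 0.26 and -0.04, so the step was seen in the whole table. In the other pair, NP+MBP minus NP, the bands had 0.09 and 0.07 among members. Across the 54 members the correlation of MBP minus control with mean signal was Pearson r = -0.50, that of NP+MBP minus MBP was 0.57, and that of NP+MBP minus NP, the other MBP pair, was 0.03; the members share the arrays, and r is given as a description.

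The median GC content of the 45 members above the filter with a sequence was 50.0%. In MBP minus control the 23 members at or above it had a median of -0.11 and the 22 below it had 0.30. In NP+MBP minus NP the medians were 0.06 and 0.07, with no such step. NP minus control gave 0.17 and 0.02. NP+MBP minus MBP gave 0.29 and -0.15. Across these 45 members, which share arrays and in part signal level, the correlation with GC content was Pearson r = -0.45 for MBP minus control, -0.37 for NP+MBP minus NP, 0.38 for NP minus control and 0.43 for NP+MBP minus MBP (Spearman rho = -0.45, -0.22, 0.39 and 0.47). For other rows the check is void, since 57 of 286 had a sequence under their own name. The part of signal and base composition in the MBP and NP differences was not tested.

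**Figure D4:**
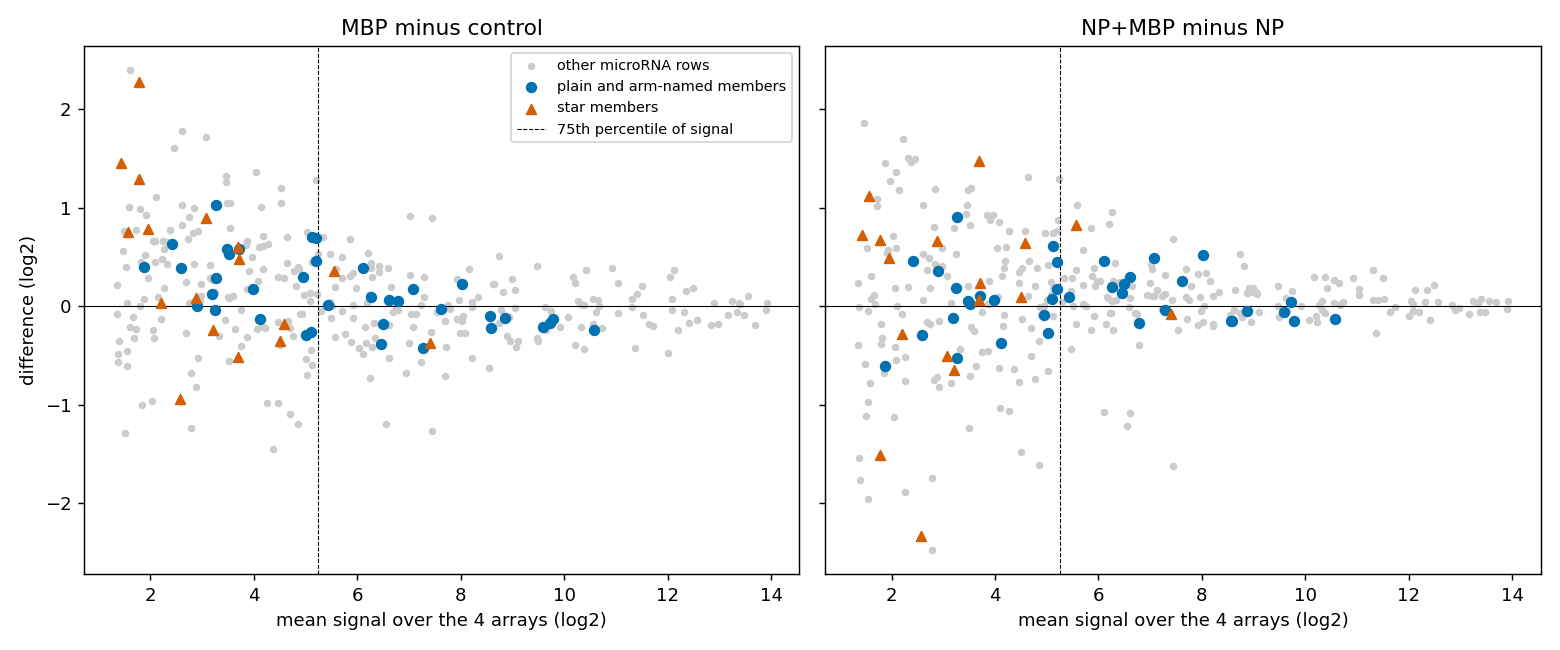
Log2 difference (vertical axis) against mean log2 signal over the 4 arrays (horizontal axis) for the rows above the filter, in MBP minus control (left) and NP+MBP minus NP (right); circles are plain and arm-named members, triangles star members, grey points other rows, and the dashed line is the 75th percentile of signal, 5.25. On the left the members below that line have a median of 0.40 and those above it -0.10; on the right the medians are 0.09 and 0.07.

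Members whose seeds differ by 1 base were then set side by side. miR-411 was at 6.73 with NP, 7.26 with MBP, 7.22 with NP+MBP and 7.08 in control, with the NP array lowest, whereas miR-379 had the MBP array lowest. miR-154-star had its highest value on the MBP array, where miR-487b had its lowest. miR-376b-3p and miR-376a both had their highest value there, but miR-376b-3p was higher with MBP in both pairs and miR-376a in 1 of them. miR-412-star and miR-369-5p were also highest with MBP, with their lowest value on the NP array for miR-412-star and on the control array for miR-369-5p.

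The 23 members left out by the filter included 15 star rows. The members just above the filter were miR-433-star, with a mean of 1.44, and miR-493-star, with 1.57. Just below it were miR-370-star, with 1.26, and miR-411-star, with 1.19. miR-411-star was at 0.17 with NP, 2.09 with MBP, 1.23 with NP+MBP and 1.25 in control, the same order of arrays as miR-379-star. miR-377-star was at 0.31, 0.35 and 0.29 with NP, MBP and NP+MBP and at 2.001 in control, and miR-494-star was at -0.16 on all 4 arrays. Of all members, 9 had a value that was repeated exactly on several arrays, 3 of them above the filter (miR-493, miR-323 and miR-409-5p).

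The array also carries rows for the precursor hairpins. The members had 50 such rows, with a median of 0.20, and 6 of them reached the filter set on mature rows. The highest, of miR-665, was at 3.74 with NP, 3.49 with MBP, 3.59 with NP+MBP and 3.71 in control. None was 2-fold from control in any treatment, where 6 to 8 of all 486 hairpin rows were. In NP+MBP minus NP 1 of them was 2-fold apart, against 7 of all. Few of these rows carried a signal on which a difference of the precursors could be read.

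3 other groups of clustered microRNAs, listed by number, were read in the same way. The X-linked testis cluster had a median of 0.59 over 14 rows in MBP minus control and 0.88 in NP+MBP minus NP, against 0.09 and 0.09 over the Dlk1-Dio3 members. The Sfmbt2 cluster had medians of -1.19 and -1.41 over 4 rows, and the miR-17 family clusters -0.07 and 0.20 over 18 rows. With 1 array per group the difference of the Dlk1-Dio3 members from these groups was not tested.

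On the gene-level array, whose coordinates are those of the RGSC3.4 build, the precursors with a probe set near Meg3 and Rtl1 span chr6:134141353-134210272, and those on the other side span chr6:134388198-134425158. Dlk1, a membrane protein related to Notch ligands, at chr6:134022016-134029075, was at 9.57 with NP, 9.46 with MBP, 9.49 with NP+MBP and 9.62 in control. Meg3, the noncoding RNA that opens the maternal transcripts (listed on the array as RGD1566401), was at 9.34 with NP, 9.29 with MBP, 9.25 with NP+MBP and 9.43 in control. Dio3, the deiodinase that inactivates thyroid hormone, was at 7.44 with NP, 7.49 with MBP, 7.47 with NP+MBP and 7.68 in control. In all 3 genes the control array was the highest, by 0.24 or less. The 45 antigenomic background controls ran the same way, with a median difference from control of -0.11 with NP, -0.06 with MBP and -0.14 with NP+MBP, and the part of background in these genes' differences was not tested.

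No gene of the domain list was 1.5-fold from control in any treatment. Of 15 listed names 10 were measured, 9 of them above the gene-level filter, and their differences from control ran from -0.24 to 0.10. Among all 13798 probe sets above that filter, 0.0725% were 1.5-fold from control with NP, 0.0652% with MBP and 0.225% with NP+MBP, so a count of 0 among 10 genes is near the background. The neighbours Begain, Wars, Yy1, Slc25a47, Ppp2r5c and Dync1h1 differed from control by between -0.11 and 0.10. Rtl1, Rian and Mirg were not analysed here under these symbols.

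33 probe sets carried the symbol of 1 member precursor, 4 of them above the filter, and none was 1.5-fold from control. Of all 27596 non-control sets, 101 were 1.5-fold from control with NP, 63 with MBP and 145 with NP+MBP, so none among 33 is near the background. A set with the symbol Mir136, at chr6:134182036-134187535, lies on the minus strand, opposite to the other sets, and spans more than a hairpin. It spans the sets of Mir431, Mir433, Mir127 and the other Mir136, whose microRNAs lie antisense to Rtl1. By position it may read Rtl1 rather than a precursor, which was not tested. It was below the filter, at 6.46 with NP, 6.50 with MBP, 6.56 with NP+MBP and 6.69 in control. The set of Mir667 was at 9.72 with NP, 9.75 with MBP, 9.67 with NP+MBP and 9.91 in control. Between Mir370 and Mir379 the array has 101 sets with no gene symbol, 78 of them above the filter, with median differences of 0.08, 0.10 and 0.05 with NP, MBP and NP+MBP from control. These sets were chosen after the annotation was seen.

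Genes that write, erase or protect DNA methylation at imprints were also read. All 13 on the list were measured, 10 above the filter, and none was 1.5-fold from control in any treatment. By the shares of all sets given above, none among 13 is near the background too. Dnmt1, which copies methylation after replication, was at 9.61 with NP, 9.69 with MBP, 9.70 with NP+MBP and 9.68 in control. Zfp57, which guards imprints with Trim28, was at 9.83 with NP, 9.77 with MBP, 9.80 with NP+MBP and 9.76 in control. Tet1, an enzyme that oxidises methylcytosine, was the widest of those above the filter, 0.21 higher with NP. Dnmt3l, below the filter, was at 6.21 with NP, 6.34 with MBP, 6.18 with NP+MBP and 6.54 in control.

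**Figure D5:**
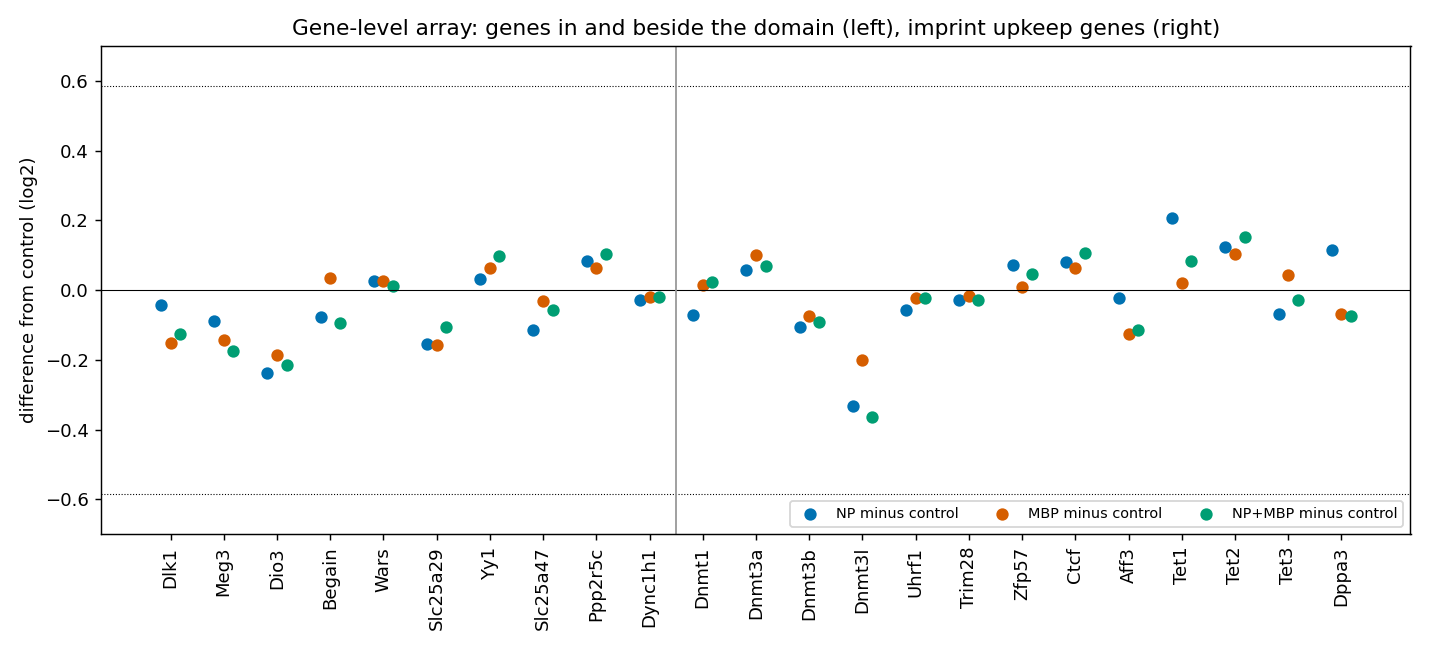
Log2 difference from control (vertical axis) of NP, MBP and NP+MBP (coloured points) for the 10 measured genes in and beside the domain (left of the line) and 13 imprint upkeep genes (right) on the gene-level array; dotted lines mark 1.5-fold. All points lie between the dotted lines, with Dlk1, Meg3 and Dio3 at or below -0.04 in every treatment.

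The cultures were checked against cell type markers on the gene-level array. Of 9 measured Sertoli markers 8 were above the filter. The log2 of their summed unlogged signals was 13.62 with NP, 13.58 with MBP, 13.55 with NP+MBP and 13.59 in control. Such a sum is weighted to the sets with the highest signals. All 7 peritubular myoid and fibroblast markers measured were above the filter too. Summed in the same way they were at 15.27 with NP and at 15.26 with MBP, with NP+MBP and in control. Leydig markers passed in 2 of 5 cases, germ cell markers in 1 of 4, endothelial in 1 of 2 and macrophage in 0 of 4. Across the marker lists, 2 genes were 1.5-fold from control with MBP, Cldn11 of the Sertoli list at -0.67 and Dazl of the germ cell list, below the filter, at 0.93. Dazl was at 1.07 with NP+MBP, where no other marker passed 1.5-fold, and none did with NP. Cldn11 lay just short of 1.5-fold with NP+MBP, at -0.58 from control and -0.56 from NP. The part of cell makeup in the members' MBP differences was not tested.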

How the data were processed

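Total RNA was read on an Affymetrix rat microRNA array and a gene-level array, 1 of each per group, in 8 samples. The authors deposited microRNA values on a log scale, which their range, -0.94 to 13.94, shows to be like log2. This base is inferred. No detection calls were used, and how the probes were summarised is not given in the sources used here. The gene-level values are log2 signals that the authors made with RMA, per the file headers, while the submitters' processing notes name MAS5. Precision is limited by the number of arrays, which may share cultures or RNA, which the labels do not say.

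Values were used as deposited. microRNA rows with a mean at or above 1.35, the median of 680 mature rat rows, were kept (340). On the gene-level array the filter was 7.50, the median of 27596 non-control sets. Differences are log2 differences. The 4 signal columns of a deposited workbook were not used, because their names match no sample title; its annotation was used. Of 24982 sets with RGSC3.4 descriptions, 97.5% overlap their listed position.

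The additive model was fitted with limma 3.58.1 in R 4.3.3, with terms for NP and MBP and no interaction, Benjamini-Hochberg over all rows above the filter, and tested on simulated data. Python 3.11.15 with numpy 2.4.6, pandas 2.3.3, scipy 1.17.1 and matplotlib 3.10.9 did the rest. Arms of older names were taken from general knowledge of naming.

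The members, lists and named rows were chosen with earlier results of these data known. Named were the 10 members with the highest mean signal, the 4 highest and 4 lowest over the pairs of each compound, members 2-fold from control, and up to 8 precursors with both strands above the filter. Alternatives were 3 scalings, 2 other filters, a 1.5-fold threshold and a prior that follows signal.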

Additional observations from a re-analysis of the deposited data

Results flagged for a closer look

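In miR-380-star each compound's difference turned round when the other compound was present. The row passed the filter only through the arrays with a single compound, so these turns are in part set by the filter. MBP minus control was 1.2925, whereas NP+MBP minus NP was -1.5084. NP minus control was 1.1237, whereas NP+MBP minus MBP was -1.6773. The member median for NP also had opposite signs, 0.0605 in NP minus control and -0.0184 in NP+MBP minus MBP. With median centring both were above 0, at 0.268 and 0.1973. With the filter at the 75th percentile both were above 0 too, at 0.0756 and 0.2566. The signs stayed opposite with quantile and loess scaling and without the filter. With 1 array in each group these differences between the pairs were not tested.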

How the results depend on the processing

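With median centring the member median was 0.268 in NP minus control, 0.0418 in MBP minus control, 0.2595 in NP+MBP minus control, 0.0413 in NP+MBP minus NP and 0.1973 in NP+MBP minus MBP, while the medians of all rows were 0.2237, -0.0142, 0.2406, 0.0292 and 0.2480. With quantile normalization it was 0.0471 in MBP minus control, 0.0072 in NP+MBP minus control and 0.0614 in NP+MBP minus NP, and with cyclic loess 0.0041, -0.0208 and -0.0765. Without the filter it was 0.0788 in NP+MBP minus NP. With the filter at the 75th percentile it was -0.1034 in MBP minus control, 0.1676 in NP+MBP minus control, 0.0744 in NP+MBP minus NP and 0.2566 in NP+MBP minus MBP. Members 2-fold apart in NP+MBP minus MBP numbered 3 with median centring, 3 with quantile normalization and 2 with loess. Without the filter 10 were 2-fold apart in NP minus control, and above the 75th percentile there were 0 in all 5 comparisons, with 20 members counted. At 1.5-fold the counts were 9 in NP minus control, 12 in MBP minus control, 5 in NP+MBP minus control, 13 in NP+MBP minus NP and 15 in NP+MBP minus MBP. The other 37 of 67 alternatives moved no value beyond its spread or a count by over 1.5 times. The additive model called 0 members in each of its settings. The spread of a median was the SD of the medians of a compound's 2 pairs, 0.0062 for MBP and 0.0558 for NP. NP+MBP minus control, which has no other pair, was given 0.0558. Such a spread is not a measure of error, so the 37 is not a rate of robustness. Under at least 1 scaling the sign turned for 8 members in NP minus control, 7 in MBP minus control, 18 in NP+MBP minus control, 9 in NP+MBP minus NP and 13 in NP+MBP minus MBP. Apart from fewer rows where the filter is higher, the causes were not tested. No paired analysis was possible because the groups share 1 replicate number only; the pairs of arrays compared are pairs of treatments, not of replicates. Without replicate arrays or detection calls, star rows near the filter carry the least certain values.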
